A study of Drosophila melanogaster with 4 samples.

Results

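The genes described here encode proteins that the fly fat body secretes: fit, takeout (to), the storage hexamerins Lsp2, Lsp1alpha and Lsp1beta, and the yolk proteins Yp1, Yp2 and Yp3. They were chosen by name, with earlier results of these data known, as 8 of the 14161 gene symbols in the deposited files, and all 8 were found. RNA was measured by sequencing in 4 libraries of Drosophila melanogaster brains, labelled as dvpdf neurons: 2 are labelled control and 2 NonA RNAi, in which nonA, the gene of a nuclear RNA-binding protein, was targeted by RNA interference in those cells. All 4 share the tissue, the cell label and the amplification of the RNA. Apart from the name dvpdf, the labels used here give no driver line, RNAi construct, control genotype, sex, age, time of day or number of flies for either group. Nothing in them says that replicates came from separate dissections, and p-values here reflect no more than the scatter among these libraries, which may be technical.

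The fat body is the liver-like and adipose tissue of insects. It releases proteins into the hemolymph, the fluid that bathes all organs, and in the adult head it lies in the hemolymph space next to the brain. Yolk proteins are made by the fat body and the ovarian follicle cells of females and are taken up by growing oocytes through the receptor Yolkless. Hexamerins are stored by the larva as an amino acid reserve for metamorphosis. takeout is a secreted protein of the juvenile hormone binding protein family, known from the head fat body of males, where it acts in courtship and feeding, and fit is a secreted, female-enriched fat body protein that acts in feeding.

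Reads assigned to genes came to between 8419248 and 9832771 per library, and levels are given as CPM, the share of these gene reads on the usual counts-per-million scale. At this depth 3 reads, the limit that a count of 0 allows, correspond to between 0.305 and 0.356 CPM; such limits and all counting intervals cover counting error only, because amplified reads are not independent molecules. The level of nonA itself was 255.8 CPM in control replicate 1 and 240.5 CPM in control replicate 2, and for the RNAi pair 167.7 and 283.2 CPM, so that the groups overlapped and the groups below, called the control pair and the RNAi pair with values in the order of replicates 1 and 2, are named by their labels alone. The 7 neuronal markers summed to between 3673 and 5026 CPM and were read in all 4 libraries. Control replicate 1 stood apart from the other libraries for the fat body genes, and it is therefore described first and apart from the rest.

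Control replicate 1 held the highest level of all 8 genes, which together took 0.335% of its gene reads. Their summed level was 3352 CPM there, against 26.9 CPM in control replicate 2, 183 CPM in NonA RNAi replicate 1 and 10.4 CPM in NonA RNAi replicate 2. The 2 control libraries thus differed from each other by more than the 2 groups did, with means of 1690 ± 2351 CPM (SD, n = 2) in the controls and 96.6 ± 122 CPM (SD, n = 2) in the NonA RNAi libraries. An exact permutation test of the sums gave a two-sided p of 0.667, and 2 against 2 libraries cannot give less than 0.333. Among the 7248 genes kept after the filter on low values, control replicate 1 was the highest library for 24.9%. Since these are bulk libraries, fewer cells of a type and less RNA per cell cannot be told apart.

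**Figure D1:**
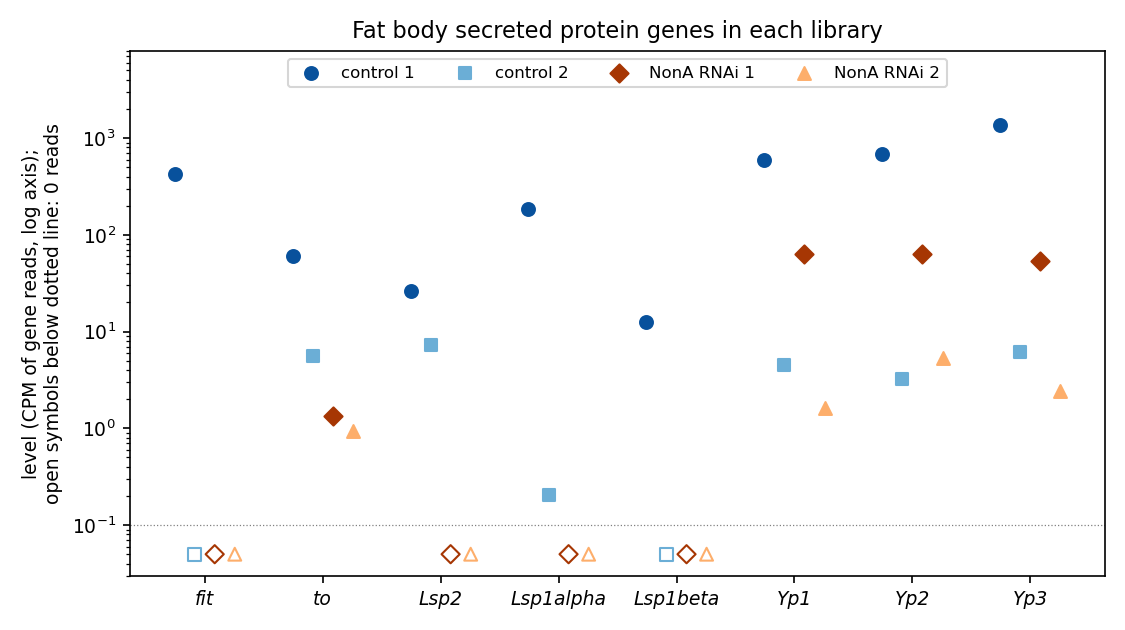
Level of the 8 fat body genes in each of the 4 libraries, in CPM on a log axis, 1 symbol per library; open symbols below the dotted line stand for libraries with 0 reads of the gene. Control replicate 1 (dark blue circles) is the highest library for every gene, from 12.5 CPM for Lsp1beta to 1364 CPM for Yp3, and NonA RNAi replicate 1 (dark diamonds) is the second for the 3 yolk protein genes only.

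The share of a gene's CPM, summed over the 4 libraries, that lay in control replicate 1 shows how far this library carried each gene. It was 100% for fit and Lsp1beta, 99.9% for Lsp1alpha, 95.6% for Yp3, 90.5% for Yp2, 89.3% for Yp1, 88.5% for to and 78.3% for Lsp2. Of the 8573 genes with at least 100 reads in all, 0.723% had 90% or more of their CPM in control replicate 1, and the median share was 23.9%. Among the 8 fat body genes 5 reached 90%. As these genes were chosen with earlier results of these data known, nothing is read from setting this count beside the share of all genes. The same share of 90% was reached by 51 genes in control replicate 2, 35 in NonA RNAi replicate 1 and 2 in NonA RNAi replicate 2, none of them a fat body gene of this group, against 62 in control replicate 1.

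**Figure D2:**
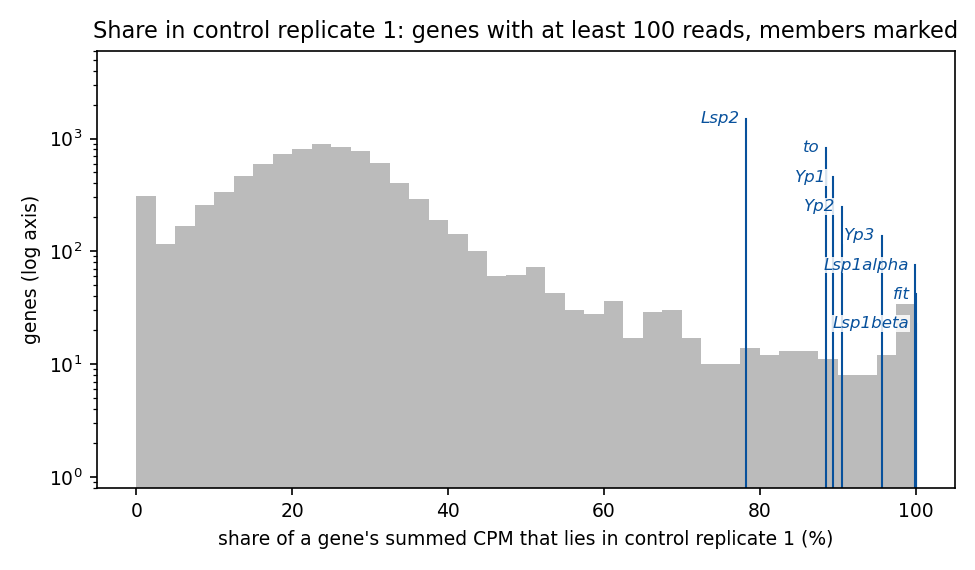
Number of genes (log axis) by the share of their summed CPM that lies in control replicate 1, in percent, for the 8573 genes with at least 100 reads; blue lines mark the fat body genes. The bulk of genes lies around the median of 23.9%, and the fat body genes lie between 78.3% for Lsp2 and 100% for fit and Lsp1beta.

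The yolk protein genes had the most reads of the group. Yp3 was at 1364 CPM in control replicate 1, from 11482 reads, against 6.1 CPM in control replicate 2, 53.8 CPM in NonA RNAi replicate 1 and 2.45 CPM in NonA RNAi replicate 2. Yp2 was at 687 and 3.25 CPM for the control pair and 63.6 and 5.38 CPM for the RNAi pair. Yp1 was at 587.8 and 4.47 CPM for the control pair and 64.1 and 1.64 CPM for the RNAi pair. For each of the 3 genes 1 library of either group was high and the other low, so the groups overlapped.

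The log2 fold of the NonA RNAi libraries over the controls was -3.17 for Yp1, -3.32 for Yp2 and -4.61 for Yp3, with standard errors of 2.24, 2.15 and 2.4. Adjusted over all 7248 genes by the Benjamini-Hochberg method, the p of edgeR's quasi-likelihood fit was 0.958, 0.958 and 0.943. The 95% interval of the fold of Yp3 ran from -10.5 to 1.31 on the log2 scale. Without control replicate 1 all 3 folds changed sign, to 2.87, 3.4 and 2.2, with NonA RNAi replicate 1 then the highest library; none of these passed either. Without NonA RNAi replicate 1 they were -7.49, -6.0 and -8.12, without control replicate 2 -4.16, -4.32 and -5.6, and without NonA RNAi replicate 2 -2.21, -2.44 and -3.67.

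**Figure D3:**
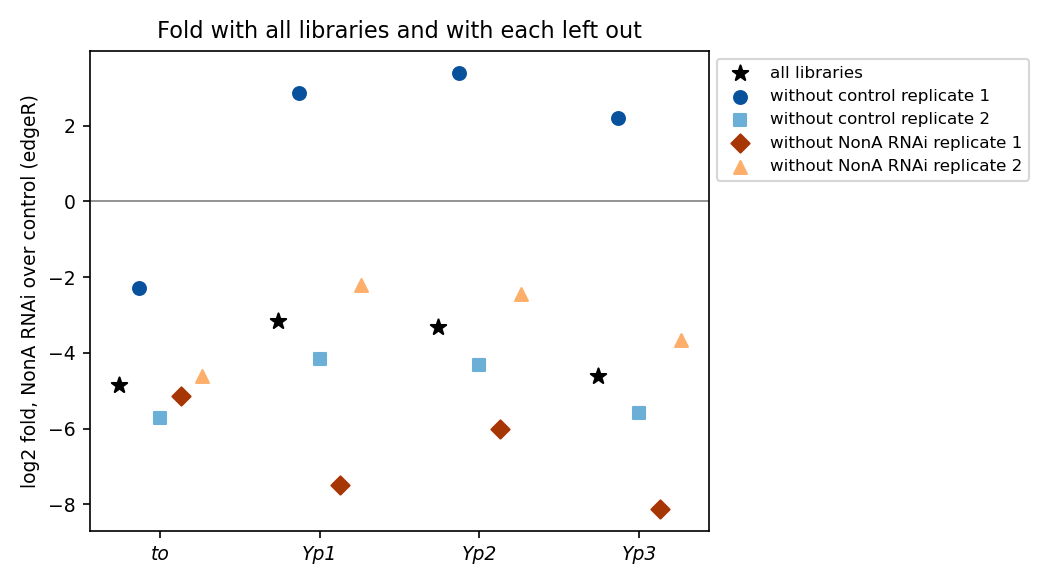
Log2 fold of the NonA RNAi libraries over the controls, from edgeR, for the 4 fat body genes with reads in all libraries; stars use all libraries and the other symbols leave out the library named. The folds of Yp1, Yp2 and Yp3 lie below 0 with all libraries and above 0, between 2.2 and 3.4, without control replicate 1, while to stays below 0.

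With control replicate 1 set aside, the yolk protein genes were the only fat body genes of this group that stood higher in a NonA RNAi library than in control replicate 2 by more than 2-fold. Between NonA RNAi replicate 1 and control replicate 2 the ratio was 14.3 for Yp1, 19.5 for Yp2 and 8.81 for Yp3, with 95% counting intervals of 10.5 to 19.9, 13.7 to 28.8 and 6.73 to 11.7; this compares 2 libraries and not the conditions. Even so, control replicate 1 was 9.17-fold, 10.8-fold and 25.4-fold above NonA RNAi replicate 1 for Yp1, Yp2 and Yp3. NonA RNAi replicate 1 was also the library with most of the muscle reads: the actin gene Act57B had 1104 reads and the myosin heavy chain gene Mhc 515 there, against 1 and 22 in control replicate 1 and at most 1 in either of the others. The 5 muscle markers summed to 169 CPM in NonA RNAi replicate 1 and to between 0.117 and 2.97 CPM in the other libraries, with TpnC4 at 0 throughout and the troponin gene up at 15 reads in NonA RNAi replicate 1 alone. Act88F went the other way, with 2 and 10 reads for the control pair and 0 for the RNAi pair. Act57B, the 1 marker of this list that passed the filter, had an adjusted p of 0.917 in edgeR (an unadjusted p below 0.05; 0 called by DESeq2). The part of muscle tissue in the yolk protein reads was not tested.

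The mixture of the 3 yolk protein transcripts was not the same in each library, a comparison chosen after the values were seen. Yp3 made up 51.7% of the yolk protein reads in control replicate 1, with an exact (Clopper-Pearson) 95% interval of 51.0% to 52.3%, and 44.1% in control replicate 2, with an interval of 35.6% to 52.9% from 136 reads. In NonA RNAi replicate 1 Yp3 made up 29.6% of 1755 reads, with an interval of 27.5% to 31.8%, and in NonA RNAi replicate 2 25.9% of 81 reads, with an interval of 16.8% to 36.9%. The share of Yp3 was thus lower in each NonA RNAi library than in either control, while the intervals of control replicate 2 and NonA RNAi replicate 2 overlapped between 35.6% and 36.9%. Yp1 and Yp2 lie side by side on the X chromosome, transcribed away from each other from starts 1174 bases apart in the BDGP6 annotation, and Yp3 lies elsewhere on the X. The ratio of Yp1 to Yp2 reads was 0.856 in control replicate 1, 1.38 in control replicate 2, 1.01 in NonA RNAi replicate 1 and 0.304 in NonA RNAi replicate 2. This ratio did not separate the groups, and its value in NonA RNAi replicate 2 rests on 14 Yp1 and 46 Yp2 reads. Nor did the ratio of Yp3 to Yp1 reads, at 2.32 and 1.364 for the control pair and 0.8387 and 1.5 for the RNAi pair. The ratio of Yp3 to Yp2 reads did, at 1.985 and 1.875 versus 0.8455 and 0.4565. Whether the share of Yp3 or of Yp2 differs between the groups was not tested.

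**Figure D4:**
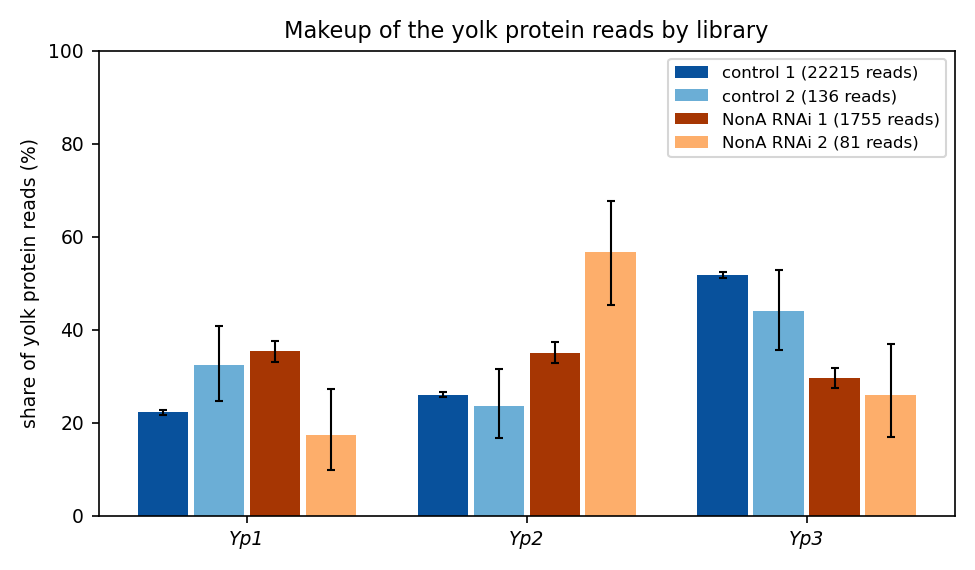
Share of Yp1, Yp2 and Yp3 in the yolk protein reads of each library, in percent; bars are single libraries and error bars exact 95% binomial intervals, which cover counting error only. Yp3 holds 51.7% and 44.1% for the control pair and 29.6% and 25.9% for the RNAi pair.

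Of the genes next to the yolk protein genes, CG15312, Cht6, Rtc1 and rdgB were not highest in control replicate 1. CG15312, which ends 130 bases beyond Yp1 on the opposite strand, was at 51.7 and 56.9 CPM for the control pair and 38.3 and 56.0 CPM for the RNAi pair. Cht6, a chitinase gene next to Yp2, was at 0.119 and 8.54 CPM versus 5.48 and 5.61 CPM, so that it was lowest in the library where Yp2 was highest. rdgB, a phosphatidylinositol transfer protein gene of photoreceptors next to Yp3, lay between 170.6 and 221 CPM in all libraries. Rtc1, on the other side of Yp3, was at 6.06 and 8.95 CPM for the control pair and 7.55 and 16.9 CPM for the RNAi pair. An antisense RNA gene, annotated in BDGP6 across 875 exonic bases of Yp1, has no entry of that name in the files, and no source used here says whether strand was used in counting.

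The yolk receptor gene yl, which acts in the oocyte, was read in control replicate 1 alone, with 28 reads. The lipophorin receptor genes LpR1 and LpR2, which take up lipoprotein in many tissues, were read in all libraries, at 272 and 278 CPM for the control pair versus 549 and 310 CPM for LpR1 and at 870 and 559 CPM versus 487 and 532 CPM for LpR2. CG32702, the fly cubilin gene, was at 26.5 and 35.0 CPM versus 84.0 and 26.2 CPM. Of the 4 receptor genes 3 passed the filter, 2 higher and 1 lower with a median log2 fold of 0.64, and edgeR called 0 of them (0 at an unadjusted p below 0.05; 0 called by DESeq2), each at an adjusted p of 0.958.

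Among the hexamerin genes, Lsp1alpha had 1551 reads in control replicate 1, a level of 184 CPM, 2 reads in control replicate 2 and 0 in both NonA RNAi libraries. Lsp2 had 219 reads in control replicate 1 and 71 in control replicate 2, at 26.01 and 7.22 CPM, and 0 for the RNAi pair. Lsp1beta was read in control replicate 1 alone, with 105 reads at 12.5 CPM. With 3 reads over both NonA RNAi libraries as floor, the pooled controls were at least 517-fold higher for Lsp1alpha, 96.6-fold for Lsp2 and 35.0-fold for Lsp1beta. Control replicate 1 carried these bounds: for control replicate 2 alone the bound was 43.9-fold for Lsp2, and none can be given for Lsp1alpha, with 2 reads, or Lsp1beta, with 0. The fitted log2 fold of Lsp1alpha went from -12.72 to -4.02 without control replicate 1, with an adjusted p of 1.0 in edgeR. Of these genes Lsp2 alone was read above the floor in both controls, where control replicate 1 was 3.6-fold above control replicate 2, with a 95% counting interval of 2.74 to 4.78.

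The makeup of the hexamerin reads was not the same in the 2 controls. Lsp1alpha made up 82.7% of the 1875 hexamerin reads of control replicate 1, with an interval of 80.9% to 84.4%, and 2.74% of the 73 reads of control replicate 2, with an interval of 0.333% to 9.55%. For Lsp2 the shares were 11.7% and 97.3%. In edgeR the adjusted p was 0.787 for Lsp2 and 0.938 for Lsp1alpha, and Lsp1beta was not tested because it did not reach the filter of a mean RPKM of 1. The remaining gene of the Lsp1 family, Lsp1gamma, had 18 reads in control replicate 1 and 0 elsewhere. The Lsp1 genes are similar in sequence and reads that aligned to several places were kept apart by the authors, so their counts are uncertain. An antisense RNA gene shares 2096 exonic bases with Lsp2 in BDGP6 and has no entry of that name in the files. The gene 276 bases beyond Lsp2, CG11534, was at 23.6 and 25.1 CPM for the control pair and 46.4 and 53.6 CPM for the RNAi pair, the opposite order to Lsp2.

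The relatives of the hexamerins listed outside the group reached at most 16.6 CPM in any library. The hexamerins of the group had 0 reads in the RNAi pair. The receptor-like Fbp1 had 3 reads in NonA RNAi replicate 2 alone. The prophenoloxidases, hemocyte enzymes of melanisation that descend from the same ancestor, were represented by proPO-A1 with 7 reads in NonA RNAi replicate 1 alone and by CG8193, which was at 8.91 and 5.8 CPM for the control pair and 13.2 and 16.6 CPM for the RNAi pair, with an adjusted p of 0.958 in edgeR. Of the 5 genes in this list CG8193 alone passed the filter, with a log2 fold of 1.02 (SE 0.84); edgeR called 0 (0 at an unadjusted p below 0.05; 0 called by DESeq2).

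fit had 3623 reads in control replicate 1, a level of 430 CPM, and 0 reads in each of the other libraries, which gives at least 1410-fold, 1388-fold and 1228-fold lower levels in control replicate 2 and NonA RNAi replicates 1 and 2, with a floor of 3 reads per library. Per length, fit and Yp3 were close to each other: the deposited RPKM, which divides by gene length, was 280 for fit and 290 for Yp3 in control replicate 1. The ratio of Yp3 to fit per base was 1.04, with a counting interval from 1.0 to 1.08. The order in this library went on with Yp2 at 146, Yp1 at 123, Lsp1alpha at 25.3, to at 16.4, Lsp2 at 3.9 and Lsp1beta at 1.61 RPKM.

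Both fit and the yolk protein genes are known as female-enriched. Their reads did not keep 1 ratio over the libraries, and the part of sex in this was not tested. Control replicate 1 held 16.3 fit reads per 100 yolk protein reads. At that ratio the 1755 yolk protein reads of NonA RNAi replicate 1 would stand beside 286 fit reads, while 0 were read, which allows at most 0.171 per 100. For control replicate 2 and NonA RNAi replicate 2 the same ratio would give 22.2 and 13.2 reads, against 0 in each. In edgeR the adjusted p of fit was 0.938; DESeq2, the other count test run, called fit with an adjusted p of 1.06e-05, although the gene was read in a single library.

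The identity of the fit reads has a limit. In BDGP6 the 531 bases of fit overlap 67 exonic bases of CG31465, a gene on the opposite strand. CG31465 had 966 reads in control replicate 1 and 0 elsewhere, the same pattern as fit. Without a stated use of strand it is not known whether reads in the overlap went to either gene or to the ambiguous reads left out. An antisense RNA gene on the strand of fit, CR45046, shares 32 exonic bases with fit and was not among the gene symbols counted. CG17819, 273 bases from fit, had 0 reads in all libraries. The gene on the other side, CG33092, was read at 20.7 and 10.1 CPM for the control pair and 15.1 and 18.4 CPM for the RNAi pair.

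to was the fat body gene whose groups were apart with reads in all 4 libraries. The control pair read 60.7 and 5.59 CPM, from 511 and 55 reads, and the RNAi pair 1.34 and 0.935 CPM, from 13 and 8 reads. Control replicate 1 was 10.8-fold above control replicate 2, with a counting interval of 8.21 to 14.6, and control replicate 2 in turn lay above both NonA RNAi libraries. The log2 fold was -4.84 (SE 1.33) with a 95% interval from -8.13 to -1.56, at an adjusted p of 0.891 in edgeR. DESeq2 called to with an adjusted p of 0.0081. This gene passed the filter only through the controls, where it was high, so nothing is read from the interval or this call. Without control replicate 1 the log2 fold was -2.28, with an adjusted p of 1.0 in edgeR; it was -5.71 without control replicate 2, and the other libraries left out gave values between these.

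takeout belongs to a family of genes, and its neighbours on chromosome 3R are relatives transcribed in the same direction. CG11854, 351 bases further on, had 30 and 6 reads for the control pair and 11 and 0 for the RNAi pair, and CG11852, 1284 bases before it, had 8 reads in control replicate 1 alone. Of 17 other family genes listed, 13 had reads and 2 passed the filter, CG2016 and CG2650. CG2016 had the most reads, at 722 and 778 CPM for the control pair and 58.1 and 269 CPM for the RNAi pair, a log2 fold of -2.20 (SE 0.78) and an adjusted p of 0.938 in edgeR. Unlike to, CG2016 was about as high in control replicate 2 as in control replicate 1. CG2650 was at 7.36 and 4.68 CPM for the control pair and 16.5 and 14.1 CPM for the RNAi pair, the opposite order. Over the list edgeR called 0 (1 at an unadjusted p below 0.05; 0 called by DESeq2), and the median log2 fold was -0.43. CG1124, below the filter, was at 12.7 and 9.05 CPM versus 0 and 4.67 CPM.

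Read together in the test across all genes, 7 of the 8 fat body genes passed the filter, and fit, to, Lsp2 and Lsp1alpha did so only through the controls, where they were high. Their lower level was thus a condition of being tested, and nothing is read from setting the following counts beside those over all genes. In edgeR 0 of these 7 passed an adjusted p of 0.05, as did 0.0% of the 7248 genes; 4 of the 7 (fit, to, Lsp2 and Lsp1alpha) had an unadjusted p under 0.05 and a lower level, against 3.61% of all genes. DESeq2 called 3 of the 7 lower, fit, to and Lsp2, against 1.5% of all genes. The NonA RNAi libraries both lay below both controls for to, Lsp2 and Lsp1alpha, against 16.7% of all genes; for Lsp1alpha this rests on 2 reads in control replicate 2, under the floor of 3. None lay above both controls, against 15.4%. Without control replicate 1 fit had no reads and could not be tested; 0 of the remaining 6 passed in edgeR, against 0.138% of all genes, and 1, Lsp2, had an unadjusted p under 0.05. Without control replicate 2 the log2 folds of fit and Lsp1alpha were -14.9 and -13.68. Control replicate 1, where both are high, is then the lone control and is assumed to vary like the NonA RNAi libraries. No call is read from that fit. Without the filter edgeR called fit, Lsp2 and Lsp1alpha, 3 of 8 fat body genes, and 79 of the 10884 genes tested. With control replicate 2 left out, the RNAi libraries lay below control replicate 1 for 8 of 8 genes, as its place as the highest library for each already fixed, and for 32.6% of all genes. With NonA RNAi replicate 1 left out, 5 fat body genes lay below both controls, as did 35.3% of all genes.

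Other secreted proteins of the fat body were listed beside the 8 genes. Of 17 such genes listed, 14 had reads and 5 of these were highest in control replicate 1, against 24.9% of all genes kept. All 8 described above were highest there, but both sets were chosen with earlier results of these data known. Nothing is read from comparing them. Of the 17 genes 9 passed the filter, 8 lower and 1 higher in the NonA RNAi libraries, with a median log2 fold of -1.06 against 0.02 over all genes. Below both controls in both NonA RNAi libraries were 5 of the 9, against 16.7% of all genes. Rfabg, the gene of the apolipophorin precursor that carries lipid in the hemolymph, was at 243 and 177 CPM for the control pair and 131 and 94.7 CPM for the RNAi pair. Tsf1, the iron carrier transferrin, was at 549 and 1166 CPM versus 110 and 222 CPM, a log2 fold of -2.37 (SE 0.63). Idgf4, a chitinase-like growth factor gene, was at 84.0 and 857 CPM versus 83.1 and 24.8 CPM. In edgeR 0 of the 9 passed over all genes (4 had an unadjusted p below 0.05); Tsf1 was the 1 gene called by DESeq2. Transferrin and Idgf4 were highest in control replicate 2, where the summed level of the glial markers and the levels of 4 of the 7 were highest too.

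The genes of fat storage with the highest CPM were read in all libraries. The desaturase gene desat1 lay between 597 and 840 CPM, the fatty acid synthase gene CG3523 was at 447 and 236 CPM for the control pair and 769 and 214 CPM for the RNAi pair, and the lipin gene CG8709 lay between 121 and 206 CPM. Of the 13 genes listed, 7 passed the filter, 6 lower and 1 higher, with a median log2 fold of -1.0. Among regulators, usp, the partner of the ecdysone receptor, was at 46.4 and 69.6 CPM versus 99.2 and 70.0 CPM, Kr-h1, a target of juvenile hormone, was at 126 and 127 CPM versus 120 and 69.3 CPM, and the nuclear receptor gene Eip75B, below the filter, lay between 171 and 283 CPM. The filter is on RPKM, which divides by the listed gene length, so a gene with many reads can fall below it. Of the 14 regulators 6 passed the filter, 5 lower and 1 higher, with a median log2 fold of -0.56. In edgeR 0 of the genes of either list passed, with 0 and 1 at an unadjusted p below 0.05, and 0 were called by DESeq2.

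Because fit and the yolk genes are known from females and takeout from males, the sex determination genes and the male-specific roX RNAs were set beside them. roX1, an RNA of the male dosage compensation complex, was high in all libraries, at 2875 and 2910 CPM for the control pair and 1405 and 2660 CPM for the RNAi pair. roX2 was at 88.7 and 84.8 CPM versus 22.9 and 116 CPM. Between the controls the roX levels were nearly the same. NonA RNAi replicate 1 had the lowest level of both roX RNAs. The part of sex in the levels of the fat body genes was not tested. Sxl, the master gene of female development, whose RNA is made in both sexes, was at 127 and 68.4 CPM versus 102 and 126 CPM. Of the 10 genes in this list 8 passed the filter, 4 higher and 4 lower with a median log2 fold of -0.02, and 0 passed edgeR (0 at an unadjusted p under 0.05) or DESeq2.

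Markers of other cells that a brain dissection can hold differed between the libraries in patterns of their own. The 10 hemocyte markers summed to 2167 CPM in control replicate 1 and to between 865 and 1112 CPM in the other libraries, and 7 of the 10 were highest in control replicate 1. Hml, a clotting factor gene that defines these blood cells, was at 476.5 and 219 CPM for the control pair and 0 and 220.3 CPM for the RNAi pair; nimC1, eater, He and Sr-CI were likewise at 0 in NonA RNAi replicate 1. Pxn, a peroxidase gene of hemocytes, was instead highest there, at 955 CPM, and crq, a scavenger receptor gene, lay between 144 and 330 CPM. The 7 glial markers summed to 1603 and 5813 CPM for the control pair and 364 and 1838 CPM for the RNAi pair, highest in control replicate 2. Among them Gs2, a glutamine synthetase gene, was at 573 and 3932 CPM for the control pair versus 114 and 859 CPM, nrv2, a sodium pump subunit gene, at 554 and 1208 CPM versus 72.5 and 367 CPM, and Eaat1, a glutamate transporter gene, at 247 and 204.5 CPM versus 75.3 and 354 CPM. The neuropeptide gene Pdf was at 4979 and 2159 CPM for the control pair and 18436 and 86575 CPM for the RNAi pair. The clock genes tim and Pdp1 were at 1636 and 829 CPM versus 2594 and 1929 CPM and at 2053 and 970.2 CPM versus 2119 and 2461 CPM. The neuronal genes Syt1, Syn and futsch, of synaptic vesicles and the axonal cytoskeleton, lay between 858 and 1369 CPM, 821 and 1594 CPM, and 749 and 951 CPM.

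Of these marker lists, 9 hemocyte genes passed the filter (7 lower and 2 higher, median log2 fold -1.66), 6 glial genes (6 lower, -1.07), 6 neuronal genes (3 lower and 3 higher, 0.04) and 6 genes of clock neurons (6 higher, 0.72). In edgeR 0 genes of each list passed, with 0, 0, 0 and 1 at an unadjusted p below 0.05, and DESeq2 called Pdf alone. The part of blood cells, glia or the sampled neurons in the levels of the fat body genes and the other secreted proteins was not tested.

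**Figure D5:**
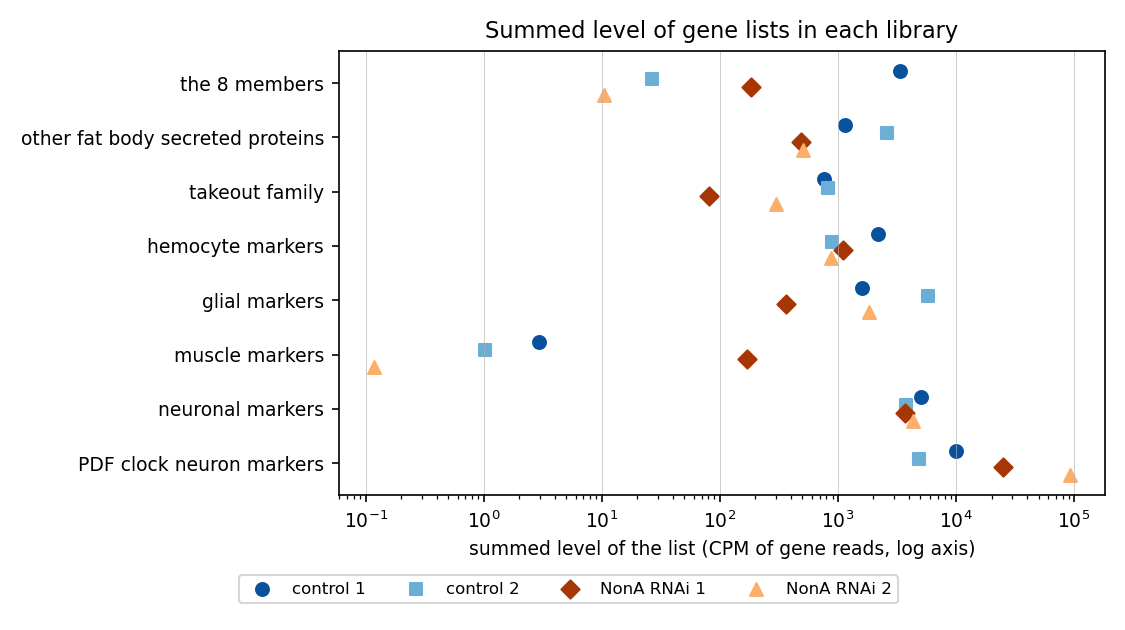
Summed level of the 8 fat body genes and of 7 other gene lists in each library, in CPM on a log axis, 1 symbol per library. The fat body genes range from 10.4 to 3352 CPM with control replicate 1 at the top, the muscle markers stand out in NonA RNAi replicate 1 at 169 CPM, and the neuronal markers lie between 3673 and 5026 CPM.

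The genes whose shares over the 4 libraries were nearest to those of each fat body gene were found among the 8573 genes with at least 100 reads, by the sum of the absolute differences of the 4 percentages. With 4 libraries this describes where reads fell. For fit and Lsp1beta the nearest had the same shares, with all reads in control replicate 1, as had 19 genes or 0.222% of all: they were the antibacterial peptide gene Dpt with 1579 reads, the stress-induced TotA with 1319 and CG31465, and, for Lsp1beta, fit itself. Lsp1alpha was nearest to fit, CG16712 and Dpt. CG16712 had 3616 reads in control replicate 1 and 2 in NonA RNAi replicate 2. Nearest to to was Nplp2, a neuropeptide-like precursor gene, at 810 and 97.2 CPM for the control pair and 2.79 and 7.83 CPM for the RNAi pair, a distance of 4.86 percentage points, followed by CG6865 and CG32579.

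Lsp2 was nearest to Odc1, the ornithine decarboxylase gene of polyamine synthesis, with 90 and 29 reads for the control pair and 0 for the RNAi pair, at a distance of 0.208 percentage points, and then to CG2652 and CG13795. Yp1 and Yp2 were each other's second nearest gene, 3.23 percentage points apart, after CG14052, which had 127 reads in control replicate 1 and 16 in NonA RNAi replicate 1. Next came CG4461 for Yp1 and CG5791 for Yp2, with 48 and 30 reads in NonA RNAi replicate 1. Yp3 was nearest to CG15046, the ionotropic receptor gene Ir76b and the antibacterial peptide gene AttC, which had 415 reads in control replicate 1 and 13 in NonA RNAi replicate 1.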

How the data were processed

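The authors deposited, for each library, raw read counts per gene symbol, the gene length and the RPM and RPKM, per the file headers; RPKM is their value per kilobase of the listed length. TopHat2 2.1.1, Cufflinks and build dm3 are named, per the submitters' processing notes; how reads were counted, with which annotation and whether by strand, is not given in the sources available. Left out were 5 entries without a gene name: reads aligned to several places made up 45.2% to 55.6% of all entries, reads without a feature 27.8% to 32.5%, ambiguous reads 0.22% to 0.317%, and gene reads 15.9% to 22.0%.

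Counts were scaled to the sum of gene reads. Genes with a mean RPKM of at least 1, or a mean CPM of at least 1 without a length (188 genes), were compared with edgeR 4.0.16 (R 4.3.3), two-sided, with Benjamini-Hochberg adjustment; DESeq2 1.42.0 was an alternative. The members and lists were chosen with earlier results of these data known. Genes named besides the members are nonA, the 3 most abundant of each list, and the 3 nearest to each member. Annotated neighbours and overlapping genes, yl, Lsp1gamma, Fbp1, TpnC4, Act88F, CG11852, CG11854 and further hemocyte markers were chosen after their values were seen. Symbols, neighbours and strands come from the Ensembl BDGP6 annotation and RefSeq Release 6; 8 of 115 list entries were matched through RefSeq synonyms. No sequence was used.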

Additional observations from a re-analysis of the deposited data

How the results depend on the processing

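The count of genes past the threshold, 0 with all libraries, stayed 0 under TMM or median-of-ratios scaling and with a mean RPKM of at least 5; it was 132 with DESeq2, 79 without a filter and between 0 and 30 with a library left out (10 without control replicate 1, 30 without control replicate 2). The count of fat body genes past it, also 0, was 3 with DESeq2, 3 without a filter (fit, Lsp2 and Lsp1alpha) and between 0 and 2 with a library left out, where fit and Lsp1alpha passed without control replicate 2. The filter changes the genes tested and the pooled spread; the cause of the other changes was not tested. Over all genes kept, the replicate numbers did not pair the libraries (correlation of deviations -0.0078). Yp1, Yp2 and Yp3 were nonetheless higher in replicate 1 than in replicate 2 of either group. With the replicate number as a block in edgeR, 0 genes and 0 fat body genes passed. Of the 7 fat body genes tested, 6 then had an unadjusted p under 0.05, against 4 without the block. Over all 7248 genes 340 did with the block and 358 without. Nothing is read from these counts, as the fat body genes were chosen with earlier results known. The number of fat body genes below both controls was 3 under each scaling and between 3 and 8 with a library left out, 8 without control replicate 2 and 5 without NonA RNAi replicate 1. The log2 ratio of the summed level, -4.13, was -3.68 scaled to all entries and turned to 1.85 without control replicate 1, where Yp1, Yp2 and Yp3 turned to 2.87, 3.4 and 2.2, the highest values with a library left out (the lowest were -7.49, -6.0 and -8.12, without NonA RNAi replicate 1); over the libraries left out the summed level ranged from -7.34 to 1.85. Of the 67 alternative folds of single genes, 56 kept direction and side of the threshold, 8 passed it in the same direction and 3 reversed. Outside control replicate 1, fit, to, Lsp1alpha and Lsp1beta had between 0 and 55 reads per library, and differences among the other libraries that lie within the counting intervals were not detectable at this depth.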
